A study of Saccharomyces cerevisiae with 9 samples.

Results

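The profile of RNA polymerase I (Pol I) in late log was compared with that in early log over the whole 35S rDNA repeat of budding yeast. The comparison took the 6 libraries of both subphases out of 9 in the series, and all 6858 positions of the repeat, grouped by the region in which they lie. The assay was NET-seq, native elongating transcript sequencing of Pol I: cell extracts are precipitated through an HA tag on its second largest subunit, and the 3′ ends of the RNAs that come with the enzyme are read to the nucleotide. All cultures were of 1 MATa strain, labelled wild type, that carried the tag as RPA135-(HA)3-(His)7::TRP1 and the marker alleles can1-100, his3-11, leu2-3 with leu2-112, trp1-1, ura3-1 and ade2-1, and they grew on YPD at 30 °C. Late log cultures were taken at a higher OD600 than early log cultures, and no treatment separated them. Each subphase had 3 biological replicates. Late log replicates 1 to 3 and early log replicate 1 shared a sequencing run, whereas early log replicates 2 and 3 came from another run, so values within the shared run stand beside the results that rest on all 6 libraries. Within that run early log is the single library of replicate 1. Changes and calls with the sequencing run as a term therefore rest on 1 early log culture. They do not measure the spread between early log cultures of that run.

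Pol I copies the repeat into a single 35S precursor. The precursor carries 18S, 5.8S and 25S rRNA, separated and flanked by the external and internal transcribed spacers (ETS 1, ITS 1, ITS 2 and ETS 2), which are cut out and degraded as the ribosomal subunits are assembled. Spacer RNA is therefore short-lived, and spacer reads come from polymerase-bound or unprocessed RNA, while a pull-down of Pol I also carries finished rRNA, whose reads cannot be told apart from those of nascent RNA inside 18S, 5.8S and 25S.

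Values are in RPM, read counts scaled to a library total of 1000000, the total being that of the reads between the start site and T1, the main terminator, so every value is a share of a library and not an amount per cell. The libraries held 1298631 to 2206071 such reads in late log and 350865 to 4655038 in early log. The shallowest was early log replicate 3, in which 1 read is worth 2.85 RPM. Over the 5234 positions of the mature regions that lie more than 20 nt from a spacer, the median of the mean RPM was 113 in late log and 133 in early log. Over the 1384 spacer positions that lie more than 20 nt from a mature rRNA end, called the spacer interiors below, it was 4.73 in late log and 17.1 in early log.

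The stretches on which the results turned are printed here, from 5′ to 3′ as RNA. The repeat lies on the minus strand of chromosome XII in the R64 assembly, and positions are counted from 1 at its start. Capitals mark the positions named beside each stretch, and not every one of them changed. In the ITS 1 stretches, 3 of 14 and 1 of 4 capitals were called higher in the test of single positions below, and 0 lower.
ETS 1 with positions 610 and 623 in capitals (chrXII:466932-466975): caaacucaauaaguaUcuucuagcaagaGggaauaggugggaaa
ITS 1 with positions 2700 to 2713 in capitals (chrXII:464845-464882): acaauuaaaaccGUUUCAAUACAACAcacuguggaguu
ITS 1 with positions 2782 to 2785 in capitals (chrXII:464773-464800): gcccagagguaaCAAAcacaaacaauuu
End of 25S and start of ETS 2 with positions 6650 to 6658 in capitals (chrXII:460892-460932): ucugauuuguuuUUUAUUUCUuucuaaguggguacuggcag
18S with position 1629 in capitals (chrXII:465926-465956): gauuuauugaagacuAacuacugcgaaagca
25S with position 4819 in capitals (chrXII:462736-462766): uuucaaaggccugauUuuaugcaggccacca

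Along the repeat, the summed reads of ETS 1 fell in late log, as did those of 11 of 18 windows of 18S, most deeply toward its 3′ end. Those of 5.8S and of 17 of 34 windows of 25S rose. The repeat was divided into 69 windows of 100 nt that do not cross a region boundary, and limma was run on their log2(RPM + 1) sums with Benjamini-Hochberg adjustment. The test called 50 windows (72.5% of those tested), 20 higher (29.0%) and 30 lower (43.5%) in late log. With the sequencing run as a term, 19 were higher and 29 lower, of which 15 and 25 were called the same way in both fits. With the mean of the log values of single positions in place of the window sum, 5 were higher and 42 lower: 4 in 25S and 1 in 5.8S were higher, and 15 in 25S and 14 in 18S were lower. Of the 20 windows called higher by their sums, 7 had a median position change below 0. All 7 windows of ETS 1, the leader that is cleaved off ahead of 18S, fell. Their log2 changes ran between -2.91 and -1.75, and between -2.35 and -0.98 with the sequencing run as a term. In the window at the 3′ end of ETS 1, positions 601 to 700, the sums were 530, 731 and 452 RPM in late log, against 2864, 4739 and 5506 RPM in early log. That window had the largest fall of all 69 (log2 change -2.91 ± 0.33 SE, limma adjusted p = 0.00054). The first window of the repeat, positions 1 to 100, held 1266, 1511 and 866 RPM in late log, against 2326, 7200 and 3754 RPM in early log. Its fall was the smallest of the 7 (-1.75 ± 0.44, limma adjusted p = 0.0087), and with the sequencing run as a term it was not called (-0.98, limma adjusted p = 0.074). No late log library overlapped an early log library in any of the 7 windows.

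**Figure D1:**
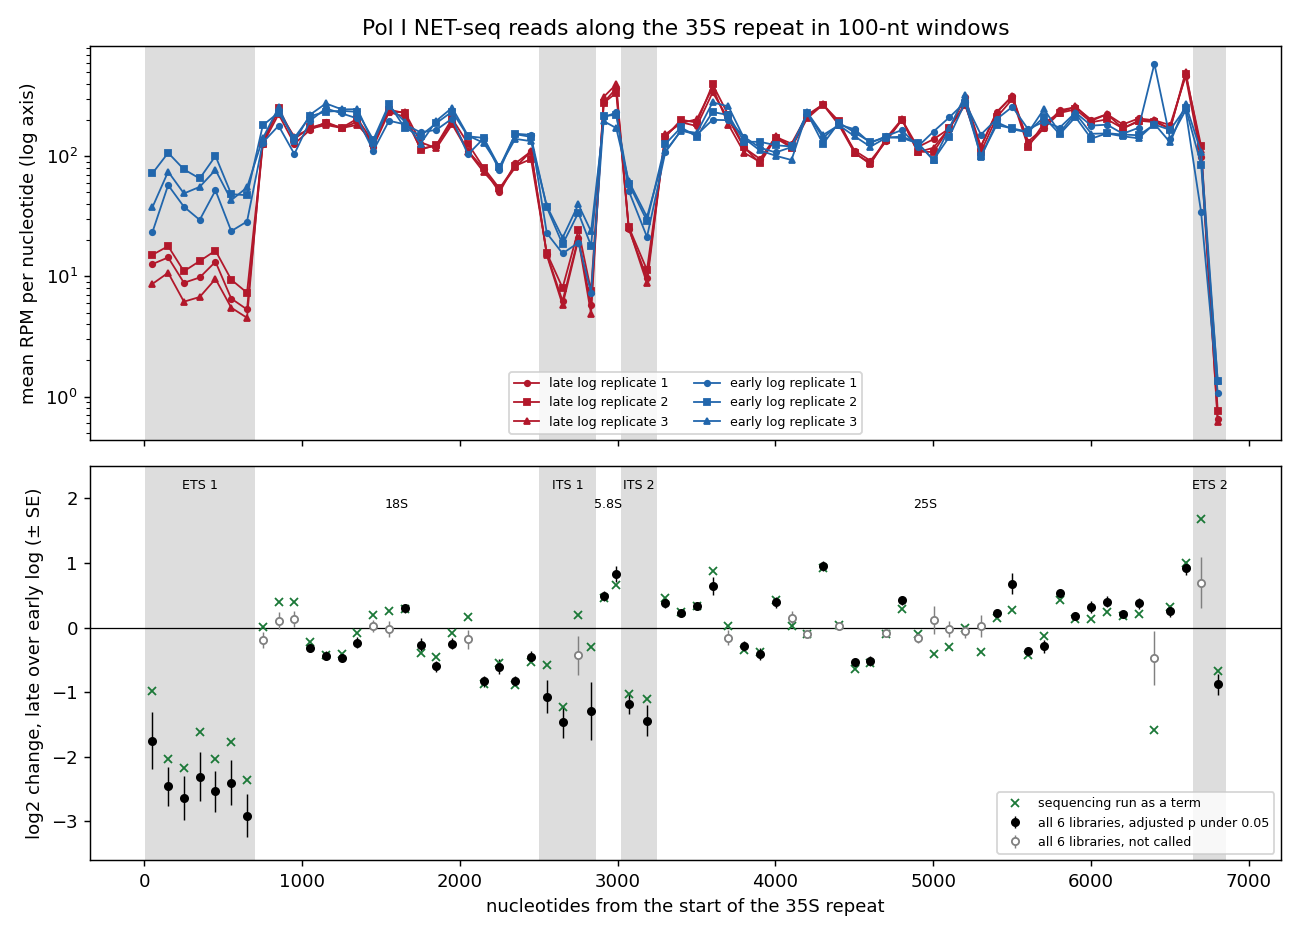
Upper panel, mean RPM per nucleotide (log axis) of each library in 100-nt windows along the 35S repeat, with the spacers shaded; lower panel, log2 change of each window in late log over early log ± SE, filled where limma called it, with crosses for the fit that holds the sequencing run as a term. All 7 ETS 1 windows lie between -2.91 and -1.75, whereas 17 of 34 windows of 25S were called higher.

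The spacers between the mature rRNAs fell less evenly. Of the 4 ITS 1 windows, 3 fell in late log and 1 was not called. At positions 2801 to 2861, 1 of the 3, the subphases overlapped, and the change was -0.30 and not called within the shared run. The uncalled window, positions 2701 to 2800, held 2106, 2437 and 2035 RPM in late log, against 1909, 3381 and 3970 RPM in early log, and late log lay inside the range of early log. Its log2 change was -0.43 with all libraries and 0.20 within the shared run. Both ITS 2 windows fell, with log2 changes of -1.18 and -1.44. In ETS 2, the trailer past 25S, the window of positions 6648 to 6747 was not called, and its log2 change was 0.70 with all libraries and 1.69, then called higher, within the shared run. The last window of the repeat, past T1, fell (log2 change -0.88).

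Within 18S, the rRNA of the small subunit, 11 of 18 windows fell, 1 rose and 6 were not called. In 2 of the 11 the subphases overlapped. With the sequencing run as a term 9 fell and 4 rose; positions 1301 to 1400 and 1901 to 2000 were then not called, and positions 801 to 900, 901 to 1000 and 1501 to 1600 were then higher. The falls were deepest toward the 3′ end. Positions 2101 to 2200 held 7842, 8011 and 7384 RPM in late log, against 14105, 14219 and 12925 RPM in early log (log2 change -0.83 ± 0.09 SE, limma adjusted p = 0.00050). Positions 2301 to 2400 changed by the same amount (-0.83 ± 0.08), and by -0.88 within the shared run. The longest uninterrupted run of positions called in 1 direction lay here: all 53 positions from 2156 to 2208 were lower in late log, with sums of 2334, 2323 and 2155 RPM in late log, against 6823, 6542 and 5492 RPM in early log. The next longest runs of lower positions were 37 nt in ETS 1 (342 to 378) and 31 nt, also in ETS 1 (139 to 169 and 618 to 648).

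In 5.8S both windows rose, by log2 changes of 0.48 and 0.83. In 25S, the rRNA of the large subunit, 17 windows rose, 6 fell and 11 were not called. With the sequencing run as a term 12 of the 17 were still higher and 9 windows were lower. The largest rise was at positions 4252 to 4351, with 27015, 26917 and 27022 RPM in late log, against 14228, 12659 and 15043 RPM in early log (0.95 ± 0.07, limma adjusted p = 0.00018). The last window of 25S, positions 6552 to 6647, held 44503, 46210 and 48443 RPM in late log, against 23154, 24271 and 26050 RPM in early log (0.92 ± 0.10). The window of positions 6352 to 6451 stood out in 1 library only, early log replicate 1, with 58806 RPM against 18364 and 18640 RPM in early log replicates 2 and 3. It was not called, but its change was -1.58 and called within the shared run.

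At single positions the same test, limma on log2(RPM + 1) over 6746 positions that averaged 1 RPM or more, called 3250 (48.2%). In late log 840 were higher (12.5%) and 2410 were lower (35.7%). The libraries of the subphases did not overlap at 3929 positions (58.2%). The median change over all tested positions was -0.44 on the log2 scale. With that median set to 0, 1474 of 2800 called positions were higher and 1326 lower, so the balance of directions depends on the scaling. Of the 3250 positions, 3249 had the same sign with the sequencing run as a term, in which late log is set against early log replicate 1 alone. That library and the late log libraries also enter the fit that called these positions, so the signs are not independent. The change relative to the overall median was -1.54 for ETS 1, -0.79 and -0.70 for the internal spacers ITS 1 and ITS 2, and -0.25 for ETS 2. It was 0.58 for 5.8S, 0.29 for 25S and -0.04 for 18S. Within the shared run, and not set against the overall median, ETS 1 had a median of -1.37, ITS 1 of -0.60, ITS 2 of -0.64 and ETS 2 of -0.09. Of 685 tested positions of ETS 1, 479 were lower and 0 were higher in late log by limma, and 539 had an unadjusted p under 0.05; with the sequencing run as a term 287 were lower and 3 higher. Over all spacers limma called 755 positions lower and 13 higher, and edgeR on whole reads recovered from the RPM steps called 643 lower and 20 higher. With the sequencing run as a term limma called 411 spacer positions lower and 42 higher.

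Replicates of early log were farther apart than replicates of late log in every region. The late log libraries shared 1 sequencing run, whereas the early log libraries came from different runs and differed more in depth. The wider spread cannot be told apart from run and depth. The median SD of log2(RPM + 1) over the positions of ETS 1 was 0.48 in late log and 0.75 in early log. In 25S it was 0.15 in late log and 0.32 in early log.

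In ETS 1 the largest falls were at positions 610 and 623, within the stretch printed above, 91 and 78 nt ahead of the first nucleotide of 18S. Position 610, a U, held 10.4, 14.4 and 3.85 RPM in late log, against 179, 488 and 750 RPM in early log. Its log2 change was -5.41 ± 0.53 SE (limma adjusted p = 8.6e-05) and -4.25 within the shared run. At position 623, a G, there were 12.2, 13.2 and 3.85 RPM in late log, against 397, 456 and 308 RPM in early log (-5.30 ± 0.39, limma adjusted p = 2.7e-05). The preceding A at position 622 held 28.6, 44.3 and 19.3 RPM in late log, against 288, 571 and 453 RPM in early log. It was above position 623 in every library but early log replicate 1. The position of ETS 1 with the highest mean over the 6 libraries, 102, held 77.5, 97.6 and 47.0 RPM in late log, against 1070, 1091 and 405 RPM in early log (-3.44 ± 0.38, limma adjusted p = 0.00016). None of these calls was lost when any 1 library was left out. By an equal-variance t-test on RPM, adjusted the same way, the calls at positions 610 and 102 were lost.

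**Figure D2:**
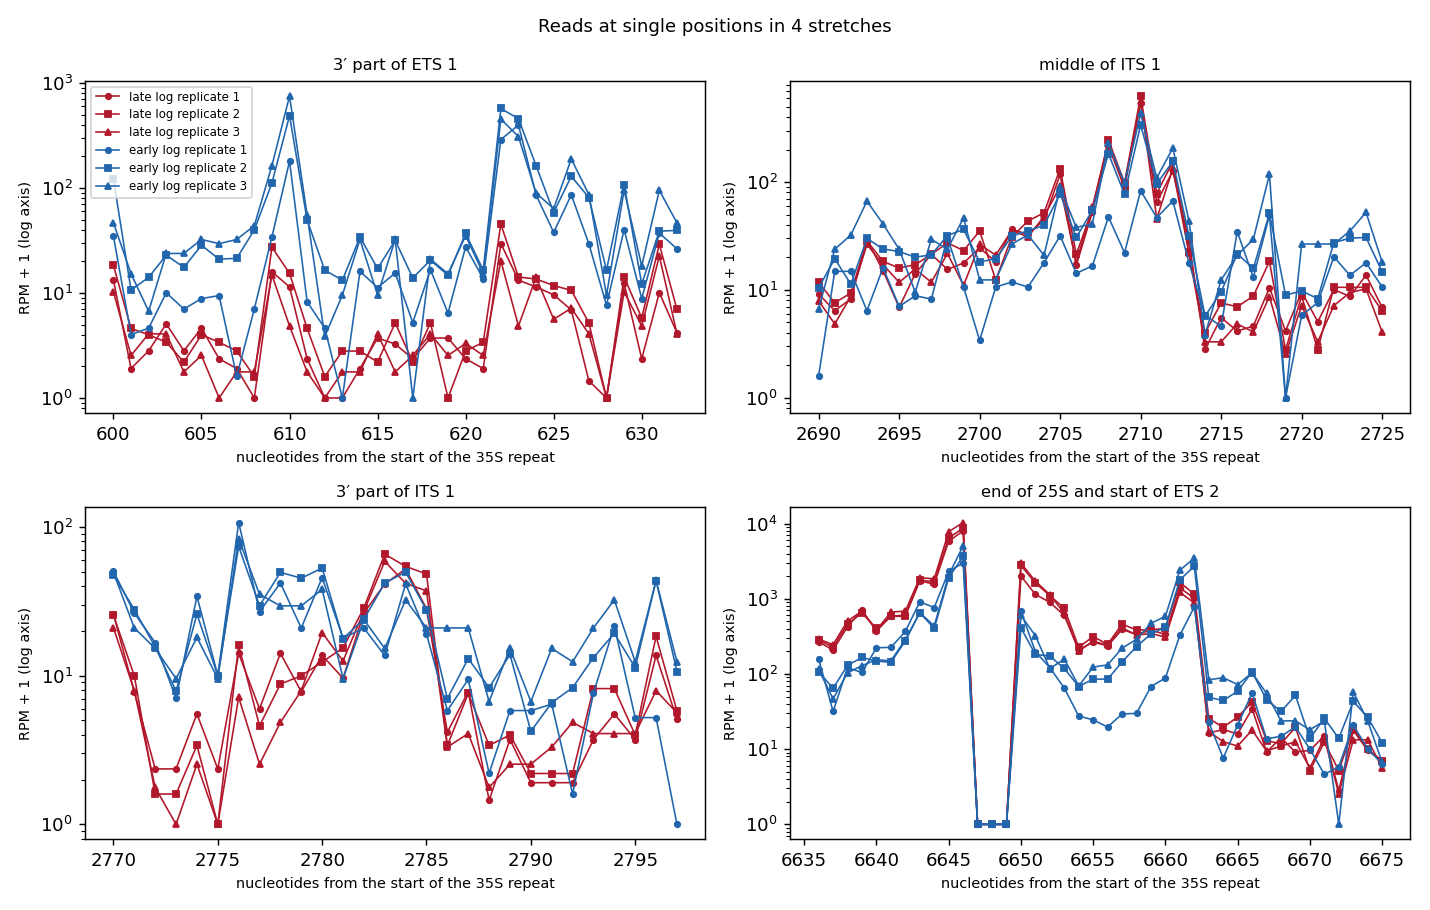
RPM + 1 (log axis) at each position in 4 stretches of the repeat, with a line for each library of late log (red) and early log (blue). In ETS 1 the late log lines lie below the early log lines at positions 610 and 623, in the middle of ITS 1 the late log lines lie above the early log lines at position 2710, and past the end of 25S the late log lines lie above all early log lines at positions 6650 to 6658.

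In ITS 1 the largest falls were at positions 2569 and 2617. Position 2569 held 9.52, 12.6 and 10.01 RPM in late log, against 124, 122 and 165 RPM in early log (log2 change -3.55 ± 0.26 SE, limma adjusted p = 2.7e-05). Position 2617 held 26.3, 37.7 and 22.3 RPM in late log, against 220, 251 and 185 RPM in early log (-2.90 ± 0.24, limma adjusted p = 4.1e-05). No late log library came near the early log range at either. In ITS 2 the largest falls were similar in size. Position 3051 had 19.9, 19.8 and 6.16 RPM in late log, against 134, 185 and 205 RPM in early log (-3.57 ± 0.40, limma adjusted p = 0.00017). Position 3221 had 16.3, 17.97 and 10.01 RPM in late log, against 144, 131 and 117 RPM in early log (-3.10 ± 0.28).

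Against this fall, 1 position of ITS 1 rose past the rule for naming. Position 2710, an A, held 540, 624 and 565 RPM in late log, against 82.1, 337 and 430 RPM in early log. The rise was small beside the replicate spread (log2 change 1.33 ± 0.49 SE, limma adjusted p = 0.047) and was lost when late log replicate 1, 2 or 3 or early log replicate 2 was left out. Position 2710 is the summit of a cluster of reads from 2700 to 2713, chosen after its values were seen, that ends sharply at the next nucleotide. Position 2713 held 27.7, 21.6 and 20.8 RPM in late log, against 16.9, 30.9 and 42.8 RPM in early log, and position 2714 held 1.81, 2.99 and 2.31 RPM in late log, against 4.83, 4.73 and 2.85 RPM in early log. ITS 1 holds the cleavage sites at which the small subunit precursor is parted from that of the large subunit, although the files mark none. The 14 nt of the cluster summed to 1395, 1594 and 1410 RPM in late log, against 387, 1176 and 1377 RPM in early log. Late log was higher in each library, with early log replicate 3 just below the lowest late log value and early log replicate 1 far below it. At single positions limma called 3 of the 14 higher and 0 lower, where 12.5% of all tested positions were higher. The cluster made up 10.6, 9.85 and 13.1% of spacer interior reads in late log, against 1.09, 1.75 and 2.41% in early log. A second group of 4 nt, positions 2782 to 2785, also chosen after its values were seen, summed to 144, 193 and 161 RPM in late log, against 91.1, 139 and 88.4 RPM in early log. Of these 4 positions limma called 1 higher and 0 lower.

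The start of ETS 2 rose together with the end of 25S. The last 7 counted positions of 25S, 6640 to 6646, summed to 18687, 20183 and 23618 RPM in late log, against 7793, 7206 and 8793 RPM in early log, and all 7 were called higher. Positions 6647 to 6649 were listed at 0 in every library. Beyond them, positions 6650 to 6658 summed to 6073, 7876 and 7908 RPM in late log, against 1187, 1489 and 2024 RPM in early log, and limma called 8 of the 9 higher. The largest rise of ETS 2 by the naming rule was position 6652, with 896, 1101 and 1134 RPM in late log, against 121, 172 and 117 RPM in early log (log2 change 2.94 ± 0.20 SE, limma adjusted p = 2.7e-05, and 3.09 within the shared run). The next 4 nt, 6659 to 6662, directly precede the 35 nt that the files annotate as residues cleaved by Rnt1, the RNase III that cuts the 3′ end of the precursor. They summed to 3126, 3592 and 2754 RPM in late log, against 1262, 5262 and 6937 RPM in early log, and limma called none of the 4. Here early log replicate 1 lay below late log while early log replicates 2 and 3 lay above it. The stretch at the end of 25S and both stretches of ETS 2 were chosen after their values were seen. Over all tested positions, 12.5% were called higher.

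Inside the annotated Rnt1 stretch the sums were 375, 388 and 279 RPM in late log, against 491, 999 and 1123 RPM in early log, and 12 of 35 positions were called lower, a share near the 35.7% of all tested positions. At T1 there were 63.5, 73.1 and 55.4 RPM in late log, against 73.6, 142 and 151 RPM in early log. This fall was called (log2 change -0.86 ± 0.28 SE, limma adjusted p = 0.029), but was -0.21 and not called within the shared run, and the call was also lost without late log replicate 1 or 3 or early log replicate 2 or 3. Past T1 the sum over 119 positions was 102, 110 and 94.7 RPM in late log, against 180, 234 and 214 RPM in early log. The A at position 6680, in the Rnt1 stretch, had the largest fall of ETS 2, with 24.0, 31.1 and 16.9 RPM in late log, against 88.7, 103 and 128 RPM in early log (-2.13 ± 0.28, limma adjusted p = 0.00038).

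The first counted nucleotides of ITS 2 fell in late log, whereas those of ETS 2 rose. Positions 3021 to 3027, the first counted nucleotides of ITS 2 and chosen after their values were seen, summed to 1625, 1612 and 1800 RPM in late log, against 3557, 3340 and 3067 RPM in early log. They made up 43.1, 39.5 and 48.6% of ITS 2 reads in late log, against 44.6, 34.2 and 29.6% in early log, and these shares overlapped. Of these 7 positions, limma called 6 lower in late log, where 42.9% of all tested ITS 2 positions were lower. The position of ITS 2 with the highest mean, 3023, was the 1 not called, with 472, 459 and 523 RPM in late log, against 618, 681 and 624 RPM in early log.

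Single positions of the mature rRNAs changed in both directions. In 18S, position 1629 held 1208, 1672 and 1853 RPM in late log, against 192, 128 and 160 RPM in early log (log2 change 3.29 ± 0.23 SE, limma adjusted p = 2.7e-05). Position 1363 held 240, 337 and 287 RPM in late log, against 41.6, 50.7 and 25.7 RPM in early log. The falls of 18S were led by position 1899, with 58.5, 38.9 and 34.7 RPM in late log, against 381, 463 and 556 RPM in early log (-3.40 ± 0.23). The other named fall was position 1121, with 21.8, 24.0 and 21.6 RPM in late log, against 310, 199 and 154 RPM in early log. At each of these 4 positions the libraries of the subphases were apart by over 4-fold, and no call was lost without any 1 library.

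In 25S, position 4819 held 1219, 1458 and 1378 RPM in late log, against 193, 76.0 and 77.0 RPM in early log (log2 change 3.68 ± 0.32 SE, limma adjusted p = 4.7e-05). Position 6363 had 556, 491 and 685 RPM in late log, against 63.95, 41.9 and 51.3 RPM in early log (3.44 ± 0.21). The named falls of 25S were uneven among the early log libraries. Position 6411 held 136, 140 and 157 RPM in late log, against 33571, 329 and 667 RPM in early log (-3.75 ± 1.32, limma adjusted p = 0.038), and the call was lost without late log replicate 1, 2 or 3. Position 5672 held 37.2, 27.0 and 31.6 RPM in late log, against 938, 170 and 145 RPM in early log. At both positions the highest early log value was that of replicate 1, the library that shared its run with late log.

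In 5.8S, positions 2926 and 2940, both A, rose. Position 2926 held 1498, 1629 and 1819 RPM in late log, against 398, 322 and 302 RPM in early log (log2 change 2.28 ± 0.20 SE, limma adjusted p = 4.6e-05). Position 2940 held 1308, 1446 and 1684 RPM in late log, against 352, 272 and 296 RPM in early log (2.27 ± 0.20). The falls of 5.8S were smaller and were led by position 2992, with 43.1, 41.9 and 38.5 RPM in late log, against 119, 141 and 208 RPM in early log (-1.86 ± 0.24).

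The position with the highest mean lay at the 3′ end of 25S and of 18S, but not of 5.8S. Position 6646 of 25S had 7984, 8707 and 10334 RPM in late log, against 2997, 3688 and 5048 RPM in early log (log2 change 1.23 ± 0.42 SE, limma adjusted p = 0.035). That call was lost without late log replicate 1, 2 or 3 or early log replicate 2 or 3, although the subphases did not overlap. Position 2498 of 18S had 1887, 1083 and 1746 RPM in late log, against 3930, 3357 and 2471 RPM in early log (-1.06 ± 0.32, limma adjusted p = 0.022), and its call was lost without late log replicate 2 or 3 or early log replicate 2. Position 2970 of 5.8S, inside the rRNA, had 5929, 4722 and 4955 RPM in late log, against 791, 2553 and 1359 RPM in early log (1.89 ± 0.42), and its call held with any 1 library left out. In the spacers next to them the most heavily read positions, 2503 of ITS 1 and 6662 of ETS 2, overlapped between the subphases and were not called.

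**Figure D3:**
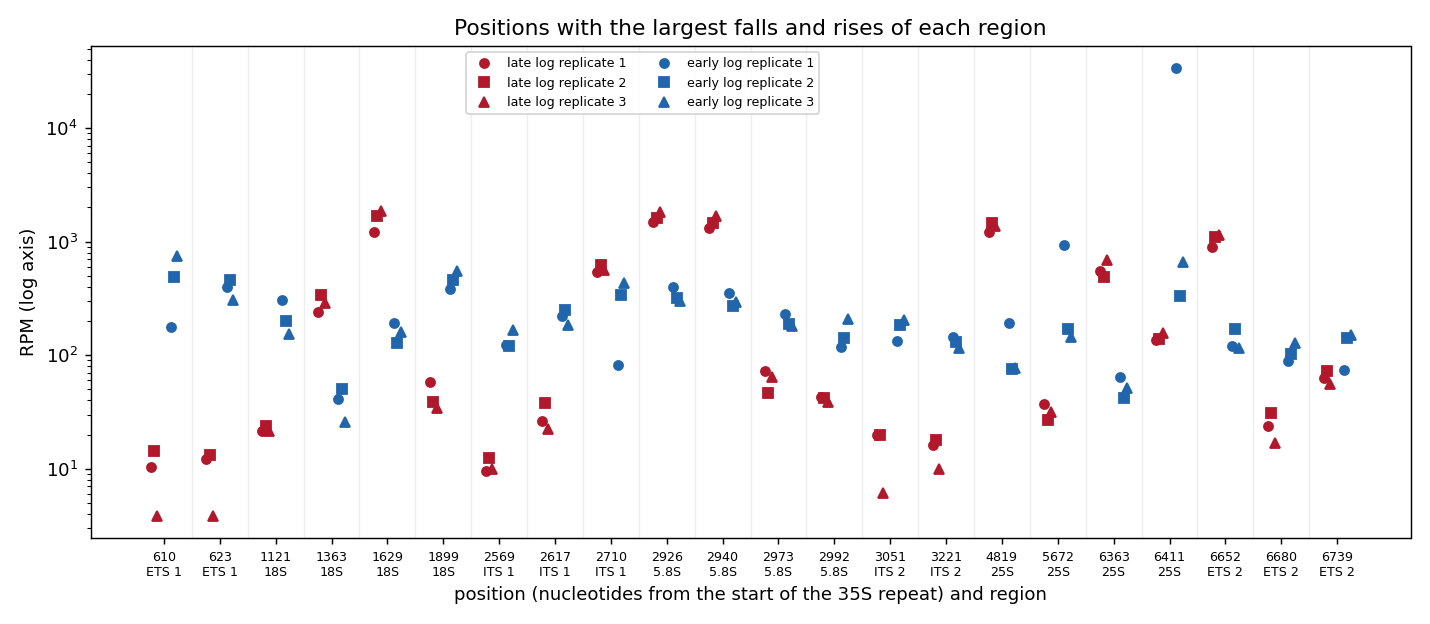
RPM (log axis) of each library at the positions with the largest falls and rises of each region, late log in red and left of early log in blue; circles, squares and triangles are replicates 1, 2 and 3. The subphases do not overlap at any of them, which was a condition for choosing them, and early log replicate 1 lies at 33571 RPM at position 6411.

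Bases near the RNA 3′ end were compared over the 5234 positions of the mature interiors. Where the nucleotide just before the 3′ end was U, 23.9% of positions were higher and 17.9% lower in late log. Where it was A, 9.32% were higher and 38.9% lower. Positions with A at the nucleotide before that one were higher in 22.4% and lower in 18.1%, and positions with C there were higher in 8.62% and lower in 47.6%. The base at the 3′ end itself separated the positions less, with 28.5 to 34.5% lower for each of the 4 bases. Reads with U just before their 3′ end made up 30.1, 31.2 and 30.8% of mature interior reads in late log, against 22.5, 25.1 and 26.2% in early log. Both rates are read against the 15.3% of mature interior positions that were higher and the 30.9% that were lower.

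The distribution of reads among the spacers differed between subphases. The spacer interiors took 1.32, 1.62 and 1.07% of reads in late log, against 3.54, 6.70 and 5.72% in early log, a difference of -1.96 on the log2 scale and of -1.43 within the shared run. ETS 1 made up 53.2, 55.5 and 47.9% of the spacer interior reads in late log, against 71.1, 77.0 and 68.2% in early log. ITS 1 made up 27.2, 26.8 and 31.6% in late log, against 15.1, 12.1 and 17.7% in early log. ITS 2 made up 14.3, 13.3 and 15.3% in late log, against 11.0, 8.39 and 11.2% in early log, and ETS 2 made up 5.26, 4.46 and 5.16% in late log, against 2.80, 2.43 and 2.87% in early log. No late log library overlapped an early log library in any of these, so that each reached p = 0.10 in a two-sided exact permutation test, the smallest that 3 against 3 libraries allow. Without the 14 nt of the ITS 1 cluster, a setting chosen after seeing the data, the share of ITS 1 was 18.6, 18.8 and 21.3% in late log, against 14.2, 10.6 and 15.7% in early log.

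**Figure D4:**
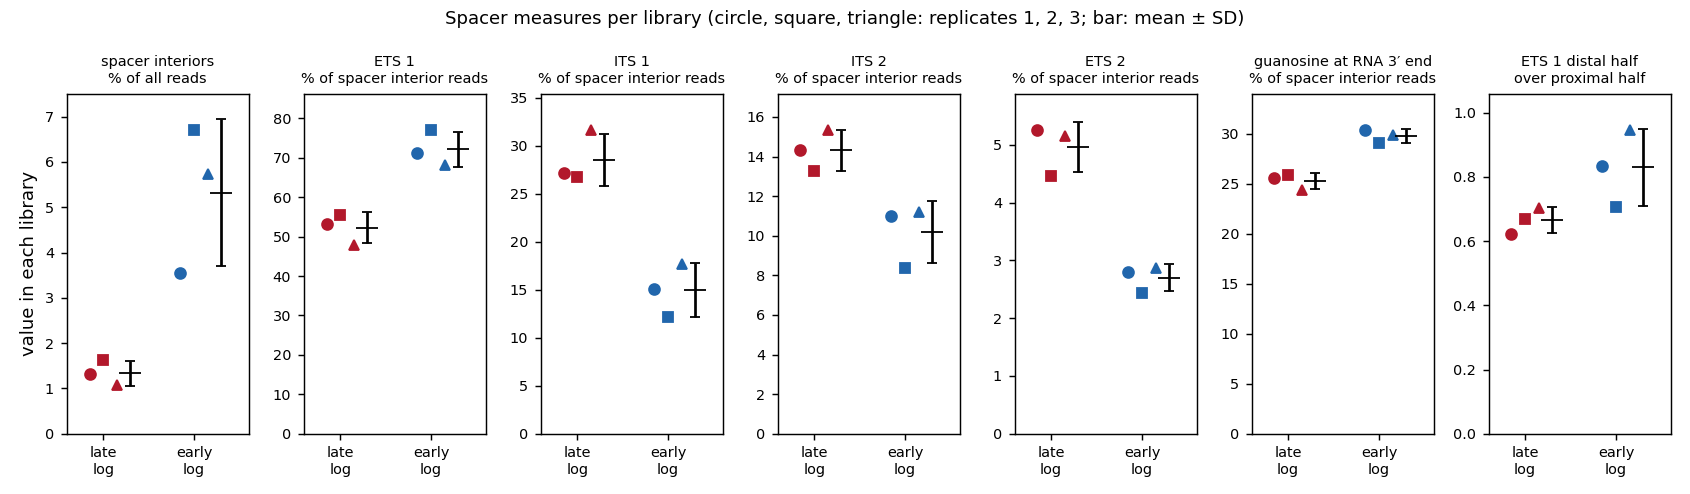
Value of each library for 7 measures of the spacer interiors, late log (red) left of early log (blue), with the mean ± SD beside them; every axis starts at 0. The share of ETS 1 was between 47.9 and 55.5% in late log and between 68.2 and 77.0% in early log, and no panel shows an overlap.

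Each library was then scaled to its own spacer interior reads (spacer RPM, the same unit over those reads alone), which takes out the fall of the spacers as a whole, and the 1200 positions with a mean of at least 100 spacer RPM were tested on log2(value + 100). limma called 240 (20%), 134 higher (11.2%) and 106 lower (8.83%) in late log. ETS 1 had 99 of the lower positions and 18 of the higher ones, out of 631 tested. ITS 1 had 3 lower and 56 higher of 301, ITS 2 had 3 lower and 36 higher of 187, and ETS 2 had 1 lower and 24 higher of 81. Medians of the log2 change were -0.24 (ETS 1), 0.37 (ITS 1), 0.58 (ITS 2) and 0.77 (ETS 2). By edgeR on the recovered reads 101 positions were higher and 131 lower, and 204 were called by both.

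On this scale the 3 largest rises were all in ITS 1, at positions 2710, 2783 and 2700, and the 3 largest falls all in ETS 1, at positions 610, 623 and 232. Position 2710 held 40926, 38523 and 52677 spacer RPM in late log, against 2316, 5030 and 7519 spacer RPM in early log (log2 change 3.26 ± 0.35 SE, limma adjusted p = 9.8e-07). Position 2783 held 3058, 3997 and 5383 spacer RPM in late log, against 358, 612 and 249 spacer RPM in early log (3.10 ± 0.34). Position 2700 held 1787, 2109 and 2368 spacer RPM in late log, against 68.1, 256 and 199 spacer RPM in early log (3.06 ± 0.35). Of the falls, position 610 held 790, 888 and 359 spacer RPM in late log, against 5058, 7272 and 13096 spacer RPM in early log (-3.43 ± 0.36, limma adjusted p = 9.8e-07). Position 232 held 3299, 2183 and 1866 spacer RPM in late log, against 26483, 16794 and 8913 spacer RPM in early log (-2.68 ± 0.35, limma adjusted p = 9.3e-06). Leaving out any 1 library ended none of these 6 calls on this scale. In RPM, position 2783 held 40.3, 64.7 and 57.8 in late log, against 12.7, 41.0 and 14.3 in early log, and the subphases overlapped. Position 2700 held 23.6, 34.1 and 25.4 RPM in late log, against 2.41, 17.2 and 11.4 RPM in early log. In the test on RPM, the call at each of these positions was lost with any of 3 libraries left out.

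Within ETS 1, reads of the distal part (positions 351 to 680) were set against those of the proximal part (positions 1 to 350). The ratio was 0.622, 0.668 and 0.703 in late log, against 0.835, 0.707 and 0.946 in early log. The difference was -0.31 on the log2 scale (two-sided exact permutation test, p = 0.10), and early log replicate 2 lay within 0.01 of late log replicate 3.

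The base at the RNA 3′ end of spacer interior reads also shifted. G made up 25.6, 25.9 and 24.4% of these reads in late log, against 30.4, 29.1 and 29.9% in early log, where 23.9% of spacer interior positions are G. The difference was -4.52 percentage points (two-sided exact permutation test, p = 0.10, adjusted over 4 bases p = 0.20). A made up 41.6, 42.6 and 42.5% in late log, against 39.6, 37.3 and 37.9% in early log (p = 0.10 by the same exact test, adjusted p = 0.20). For C and U the libraries overlapped. Without the 14 nt of the ITS 1 cluster the share of G was 28.4, 28.5 and 27.8% in late log, against 30.7, 29.5 and 30.7% in early log, and that of A overlapped between the subphases. Within ETS 1 alone G made up 30.8, 30.2 and 30.2% in late log, against 32.0, 30.4 and 32.4% in early log, and the ranges overlapped. When positions were weighted by their rank in a library in place of their reads, the difference in G was 0.10 points and changed sign. At the nucleotide that follows the 3′ end in the repeat, G stood in 22.1, 21.8 and 20.6% of spacer interior reads in late log, against 35.6, 30.6 and 29.6% in early log. There A and C were higher in every late log library, and U overlapped. These shares were not taken without the ITS 1 cluster.

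The evenness of the spacer profile was described by the effective number of positions, the count of equally filled positions that would have the same Shannon entropy, after thinning each library to 13934 spacer interior reads. It was 563, 571 and 558 positions in late log, against 458, 527 and 605 positions in early log. The late log libraries were close together and lay inside the range of early log (difference 34.5, two-sided exact permutation test, p = 0.60).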

How the data were processed

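The authors collapsed duplicate reads, trimmed linkers, aligned to R64 and counted read 5′ ends per nucleotide; the submitters' processing notes name cutadapt 3.4, STAR 2.7.3a, SAMtools 1.12, bedtools 2.28.0 and R 4.3.1. The deposited values are RPM per position, scaled by the authors to the sum up to T1. The tables also hold the authors' ratio and p-value columns, which were not used. Whole reads were recovered from the RPM steps: 99.97 to 100% of values in these 6 libraries were within 0.05 reads of a whole number, and edgeR on these reads called 2974 positions. The deposited bases matched R64 at every position. Groups and replicate numbers came from the sample titles.

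Tests used limma 3.58.1 with a mean-variance trend and edgeR 4.0.16 in R 4.3.3, at an adjusted p under 0.05. The exact permutation tests were two-sided and ran over 20 assignments. The limma test of single positions was also run on simulated counts. These held few changed positions and no effect of the run, so they do not test the calls under the split of runs here. P-values measure the spread between 3 cultures per subphase, except with the run as a term, where early log in the shared run is 1 culture. Named positions were, per region, up to 2 largest falls and 2 largest rises among called positions with libraries that did not overlap and a mean of at least 100 RPM in the higher subphase, at least 6 nt apart, the position with the highest mean, and the 3 largest rises and falls of the spacer profile test. Members, lists and rules were chosen with earlier results of these data known. Alternatives were other pseudocounts, filters, margins, window sizes, scalings and tools, the run as a term, the replicate block and leaving out each library.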

Additional observations from a re-analysis of the deposited data

How the results depend on the processing

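The count of called positions was 2091 to 4058 when each library was left out in turn; it was 2091 without late log replicate 3. It was 2974 by edgeR (1479 higher and 1495 lower), 2800 with the median ratio set to 0, 2796 with the run as a term (1032 higher and 1764 lower), and 2928 by the methods' test before and 1576 after Benjamini-Hochberg adjustment. Called windows were 40 to 55 with a library left out, 48 with the run as a term (19 higher and 29 lower), 86 of 137 with windows of 50 nt and 19 of 35 with windows of 200 nt; with the mean of logs in place of the sum, 5 were higher and 42 lower. A filter on low values could not be varied for windows, since all held reads. Called positions of the spacer profile were 134 to 240 with a library left out (157, 153 and 134 without late log replicates 1, 2 and 3); with a margin of 5 nt 83 were higher and 184 lower, and with the median ratio set to 0 107 were higher and 132 lower.

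Replicate numbers did not pair the samples (correlations of same-numbered deviations 0.13, 0.24 and -0.06). With the replicate number as a block, 3346 positions, 44 windows and 239 spacer profile positions were called. The 4 differences of the exact tests were -1.96, -0.31, -4.52 and 34.5, and the block could not change them. The mean of paired differences always equals the difference of group means. By an exact sign-flip test their p was 0.25 or 0.75. The smallest p that so few pairs allow is 0.25, so this test could not call any of them.

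With a library left out, the log2 difference in spacer interior share was -2.23 to -1.77, that in the ETS 1 ratio -0.42 to -0.21, and that in G -4.89 to -4.06 points; the spacer interior share differed by -1.43 within the shared run. The difference in effective number was -1.27 to 71.9 with a library left out (-1.27 without early log replicate 1), 106 within the shared run, and -168 with a margin of 5 nt. The difference in G was 0.10 with positions weighted by rank. The cause of these changes was not tested. Over named positions, 492 of the values under alternatives kept their side of the threshold, 45 lost the call and 5 gained it. Of the losses, 9 came by the methods' test after adjustment. Position 6739 lost the call by edgeR and with 4 of the 6 libraries left out in turn, and its log2 change was -0.21 with the run as a term. Position 6662, which was not called, changed sign, from -0.95 with all libraries to 0.37 with the run as a term. Early log replicate 3 limits low positions, where a count of 0 allows up to 8.55 RPM.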

Other observations

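The 3 mid log libraries, which came from a further sequencing run, were not part of the comparison. Their spacer interiors took 4.85, 1.22 and 1.02% of reads, so that mid log replicate 1 lay inside the early log range and mid log replicates 2 and 3 lay below the early log range. ETS 1 made up 69.0, 57.4 and 55.1% of spacer interior reads in mid log. The 14-nt cluster in ITS 1 summed to 1138, 1257 and 1178 RPM in mid log and made up 2.35, 10.3 and 11.6% of spacer interior reads. Positions 6650 to 6658 of ETS 2 summed to 3248, 4543 and 4843 RPM in mid log, between the sums of late log and those of early log, and positions 6659 to 6662 to 829, 1074 and 986 RPM, below those of all late log and early log libraries.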
